A study of Mus musculus with 15 samples.

Results

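Microglia sorted from the brains of old mice given PLX5622 were compared with low autofluorescent microglia sorted from untreated mice of the same age. These are 7 of the 15 libraries of a bulk RNA sequencing study of sorted mouse microglia. The 7 libraries follow from their labels, but the comparison was chosen with earlier results of these data known. The PLX5622 group held 4 libraries from 18-month-old mice treated with that compound, and the AF-low group held 3 libraries from untreated 18-month-old mice whose cells were sorted for low autofluorescence. The other 8 libraries came from high autofluorescent cells of untreated 18-month-old mice (AF-high, 5 libraries) and from untreated 3-month-old mice (young, 3 libraries), and they entered the fit and serve as context. Libraries of a group are titled as biological replicates, but the sources do not state if each is 1 animal or a pool, and the p-values cover only the spread among these libraries. They also do not state the strain, the sex, the sort markers, the dose and schedule of PLX5622, or if cells of treated mice were gated on autofluorescence. Treatment and an autofluorescence gate therefore cannot be told apart in this comparison.

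PLX5622 is an orally active inhibitor of the CSF1 receptor, the receptor tyrosine kinase through which the ligands CSF1 and IL-34 keep microglia alive. Sustained inhibition removes most microglia from the adult mouse brain, and the niche refills after the drug is withdrawn. Macrophages at the borders of the brain, in the meninges, the perivascular space and the choroid plexus, depend on the same receptor and differ from microglia in carrying scavenger receptors such as CD163 and the mannose receptor CD206. Autofluorescence in microglia is known to increase with age and to come mainly from material stored in lysosomes.

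Levels were deposited by the authors as TPM, a transcript abundance corrected for length and scaled to a like total in every library, and the library totals ran from 956489 to 963145 TPM. TPM keeps no record of read number, so sequencing depth is unknown and no counting error can be given. Numbered gene models, that is loci with provisional names of the Gm or Rik kind, took 20.2% ± 3.05 of the TPM in PLX5622 libraries and 10.8% ± 0.936 in AF-low libraries (SD, n = 4 and 3), and the groups did not overlap (exact permutation p = 0.0571, two-sided, the smallest that 35 splits allow). Gm10800 had the highest mean level among them in PLX5622 libraries, with 45380, 37616, 65003 and 32835 TPM in PLX5622 libraries, against 164, 9243 and 2933 TPM in AF-low libraries. Young library 1 had 50757 TPM of Gm10800, so that this level was not limited to treated mice. The 12 genes with a log2 change above 4 were all numbered gene models, and 0 of them were called (smallest adjusted p 0.116, limma with Benjamini-Hochberg adjustment). The root mean square deviation from the group mean was 0.256 ± 0.0064 log2 units in PLX5622 libraries and 0.436 ± 0.0404 in AF-low libraries (exact permutation p = 0.0571, two-sided, the smallest possible, and 0.114 when adjusted). It ran from 0.228 to 0.258 in young libraries and from 0.364 to 0.560 in AF-high libraries. The deviations were taken once from the actual group means and not anew for each split. The share of mitochondrial transcripts was 2.00% ± 0.337 in PLX5622 libraries and 2.43% ± 0.187 in AF-low libraries (exact permutation p = 0.114, two-sided). The gene results are also given below with TPM rescaled without numbered gene models and mitochondrial genes, and with array weights or weights per group. Beyond these alternatives, the part these library differences play in the gene results was not tested.

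In PLX5622 microglia 19 genes fell and 0 rose relative to AF-low microglia. The genes that fell include 3 markers of border-associated macrophages (Mrc1, Cd163 and F13a1), the class II invariant chain Cd74, the adhesion receptor Pvr, the costimulatory ligand Cd80 and the myeloid transcription factor Spi1, also called PU.1. Their log2 changes ran between -1.86 for Gm49037 and -0.64 for Arrb2. Calls are from limma on log2(TPM + 1) at an adjusted p under 0.05 over 13175 genes, so that 0.144% of the genes tested fell and 0% rose. The smallest adjusted p of a gene with a positive change was 0.0715.

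Below this threshold the comparison also leaned downward. At an unadjusted p under 0.05, 1338 genes were lower in PLX5622 libraries (10.2% of those tested) and 542 were higher (4.11%), and the median log2 change of all genes was -0.05. All 4 PLX5622 values lay below all 3 AF-low values for 1433 genes (10.9%) and above them for 699 genes (5.31%). This split turned round when TPM was rescaled without numbered gene models and mitochondrial genes, to 744 genes below and 1417 above, with the median of all genes moved by 0.14 log2 units. It was 946 below and 1080 above after quantile normalization, and 1065 below and 993 above after median scaling. The fall of each of the 19 called genes kept its sign under every alternative tried. In all 19 the groups did not overlap. Leaving out libraries, or changing the pseudocount, filter or weights, therefore could not have turned the sign.

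**Figure D1:**
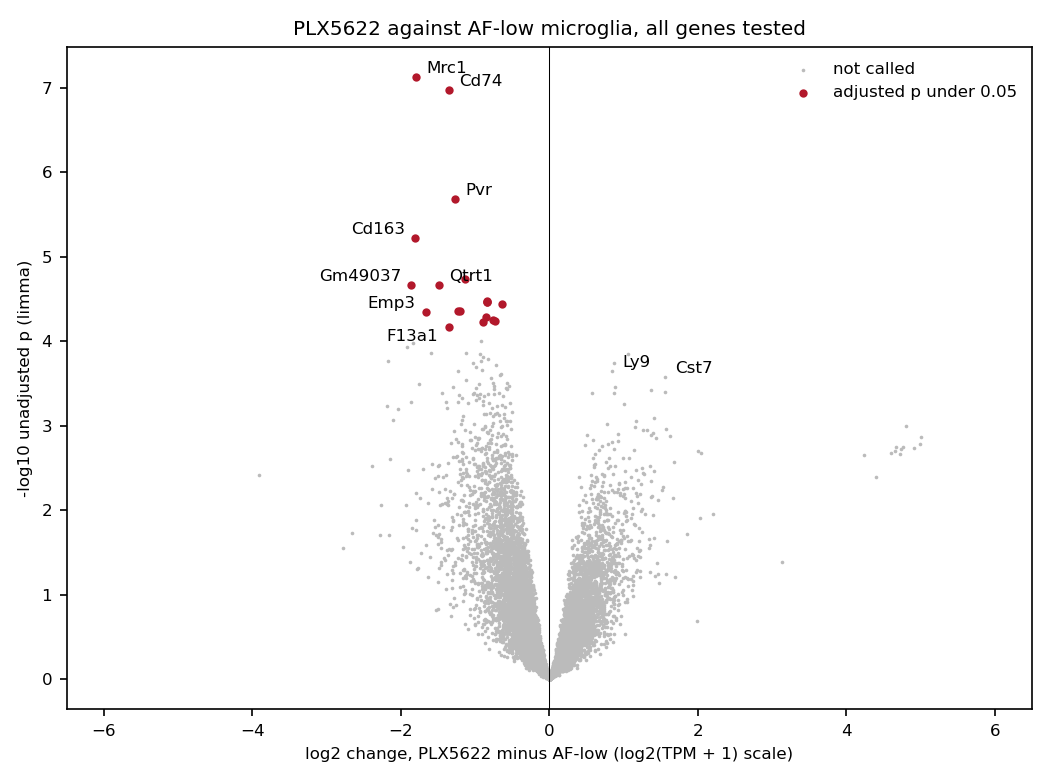
Each point is 1 of the 13175 genes tested, with the log2 change of PLX5622 minus AF-low on the x axis and -log10 of the unadjusted limma p on the y axis. The 19 red points are genes with an adjusted p under 0.05 and all lie left of 0, with Mrc1 and Cd74 highest, while Ly9 and Cst7 on the right did not pass.

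The number of calls was sensitive to single libraries, and the genes differed in how often they were called over 28 alternative settings. Mrc1 and Cd74 were called in 27 of the 28, Pvr in 24 and Cd163 in 21. The other 15 genes were called in 8 to 15 settings. With only the 4 PLX5622 and 3 AF-low libraries in the fit 0 genes were called, and the smallest adjusted p was then 0.0688, although 2323 genes had an unadjusted p under 0.05. Leaving out AF-low 2 gave 398 calls, 97 of which rose and 301 of which fell. Leaving out PLX5622 1 gave 2 calls, PLX5622 2 gave 5, PLX5622 3 gave 3 and PLX5622 4 gave 7. Leaving out AF-low 1 gave 4 calls and AF-low 3 gave 12. Each young library left out gave 4 calls, AF-high 4 gave 9 and AF-high 5 gave 7. The count was 29 without AF-high 3, 28 without AF-high 2 and 18 without AF-high 1.

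**Figure D2:**
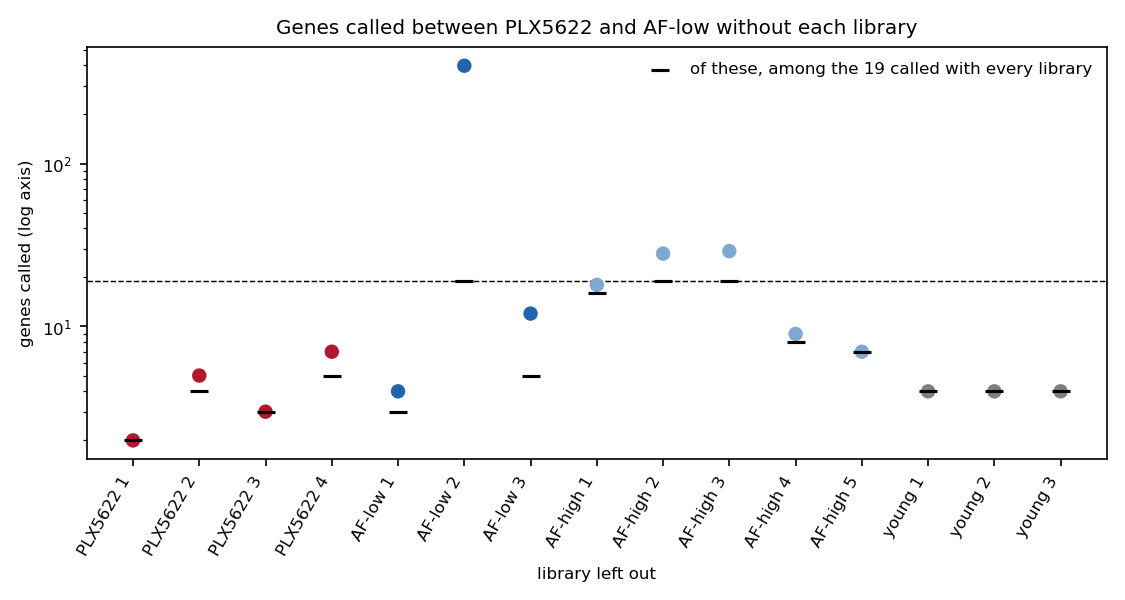
The y axis, which is logarithmic, gives the number of genes called between PLX5622 and AF-low when the library named on the x axis is left out, with points coloured by group, short bars for how many of them are among the 19, and a dashed line at 19. The count ran between 2 without PLX5622 1 and 398 without AF-low 2.

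Border-associated macrophage markers included 3 of the 19 falls. Mrc1 encodes the mannose receptor CD206, Cd163 the scavenger receptor for haemoglobin-haptoglobin complexes and F13a1 the A subunit of coagulation factor XIII. Mrc1 had 7.20, 10.97, 6.33 and 10.5 TPM in PLX5622 libraries, against 28.9, 31.7 and 36.0 TPM in AF-low libraries. The highest treated library was thus well below the lowest AF-low library. Mrc1 fell by 1.79 ± 0.19 log2 units (SE, adjusted p = 0.00071, limma).

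Cd163 had 0.534, 2.40, 0.797 and 1.33 TPM in PLX5622 libraries, against 7.19, 6.11 and 6.35 TPM in AF-low libraries. The AF-low libraries were close together and the treated ones all under 3 TPM, so the fold change of -1.80 ± 0.27 log2 units on the log2(TPM + 1) scale understates the ratio of levels (adjusted p = 0.0200, limma). This call was lost without PLX5622 1 (adjusted p = 0.0752), PLX5622 3 (0.121) or AF-low 1 (0.106), all by limma. F13a1 had 3.76, 5.54, 3.98 and 4.89 TPM in PLX5622 libraries, against 8.26, 17.2 and 15.4 TPM in AF-low libraries, where library 1 was the low one. It fell by 1.35 ± 0.25 log2 units (adjusted p = 0.0470, limma), and was called in 9 of 28 settings.

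The stretches just before the start of these 3 genes are shown because the genes fell together. Spi1, whose product binds the PU.1 core, fell too, and its part in these falls was not tested. Each sequence is the 250 bases before the gene's start in RefSeq (GRCm38.p6), read 5′ to 3′ on the gene's strand: Mrc1 chr2:14229164-14229413, plus strand; Cd163 chr6:124304401-124304650, plus strand; F13a1 chr13:37050245-37050494, minus strand. Capitals mark a match on either strand to the PU.1 core GAGGAAG or to an NF-kappaB pattern of GGG and CC with 5 bases of any kind between them, and in these windows no matches overlap.
Mrc1: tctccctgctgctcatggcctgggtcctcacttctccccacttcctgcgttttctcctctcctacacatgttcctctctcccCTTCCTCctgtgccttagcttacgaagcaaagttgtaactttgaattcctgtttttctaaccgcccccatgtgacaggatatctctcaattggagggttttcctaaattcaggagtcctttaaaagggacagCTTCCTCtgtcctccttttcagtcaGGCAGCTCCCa
Cd163: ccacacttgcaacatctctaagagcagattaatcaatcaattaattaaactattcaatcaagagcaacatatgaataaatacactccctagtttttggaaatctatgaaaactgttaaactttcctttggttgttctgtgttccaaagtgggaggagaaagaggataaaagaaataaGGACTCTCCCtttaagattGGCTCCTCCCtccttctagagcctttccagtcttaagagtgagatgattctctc
F13a1: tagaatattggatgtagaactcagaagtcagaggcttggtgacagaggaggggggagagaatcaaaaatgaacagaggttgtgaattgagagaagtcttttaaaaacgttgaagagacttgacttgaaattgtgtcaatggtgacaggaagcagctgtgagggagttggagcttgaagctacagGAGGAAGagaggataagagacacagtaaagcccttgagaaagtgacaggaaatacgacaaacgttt
The PU.1 core stood in the Mrc1 and F13a1 windows and not in that of Cd163. The NF-kappaB pattern stood in 2 places in the Cd163 window and in 1 in that of Mrc1, and not in that of F13a1. Of the 19 genes that fell, 12 could be matched to a RefSeq sequence, and 2 of these 12 held the PU.1 core, against 10.4% of 27025 promoters of the same length. The NF-kappaB pattern stood in 6 of the 12 and in 45.4% of all promoters. The AP-1 pattern TGANTCA stood in 2 of the 12 (Actn4 and Cd80) and in 6.87% of all, and the interferon-stimulated response element, GAAA repeated after 2 bases of any kind, in 1 (Fosl2) and in 3.04% of all. These are matches of letters, not sites shown to be bound.

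Of the 20 border-associated macrophage markers listed, 19 were tested, of which 3 fell and 0 rose, beside 0.144% and 0% of all genes tested. In 9 of them all PLX5622 values were below all AF-low values and in 2 (Ms4a6b and Ms4a6d) all were above, beside 10.9% and 5.31% of all genes tested. The median log2 change of the 19 was -0.62, beside -0.05 for all genes, and it lay between -0.66 and -0.51 under the 3 other scalings. This list, like the others, was written with earlier results of these data known. Pf4, a platelet and macrophage chemokine, had 7.86, 20.7, 12.6 and 16.7 TPM in PLX5622 libraries, against 52.6, 84.7 and 62.0 TPM in AF-low libraries. Dab2, an endocytic adaptor, had 44.6, 35.7, 37.3 and 55.0 TPM in PLX5622 libraries, against 286, 97.4 and 155 TPM in AF-low libraries. Neither passed, with log2 changes of -2.17 ± 0.44 (adjusted p = 0.0750, limma) for Pf4 and -1.91 ± 0.37 (adjusted p = 0.0698, limma) for Dab2.

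Cbr2, a carbonyl reductase, averaged 4.11 ± 3.94 TPM in PLX5622 libraries and 16.3 ± 6.04 TPM in AF-low libraries with no overlap, and did not pass either (log2 change -2.03 ± 0.47, adjusted p = 0.0958, limma). Cd209f, Cd38 and Stab1 also lay below AF-low in every treated library, with log2 changes of -1.41, -0.78 and -0.62, and were not called. Ms4a7 had a log2 change of -0.91 with overlap. Lyve1, the hyaluronan receptor of perivascular macrophages, averaged 2.25 ± 0.635 TPM in PLX5622 libraries and 3.55 ± 0.889 TPM in AF-low libraries (adjusted p = 0.642, limma). Ms4a6d averaged 97.6 ± 6.25 TPM in PLX5622 libraries and 71.6 ± 20.8 TPM in AF-low libraries (adjusted p = 0.219, limma). The summed level of the list ran from 796 to 1047 TPM in PLX5622 libraries and from 1041 to 1114 TPM in AF-low libraries, and Lyz2, which monocytes and activated microglia also express, was its largest member, with 450 to 651 TPM in PLX5622 libraries and 334 to 501 TPM in AF-low libraries. In bulk libraries fewer cells of a type and less RNA per cell cannot be told apart, for these markers and for every gene below. The number of list members called was 1 without young 1 and young 2, and 4 without AF-high 2, AF-high 3 and AF-low 1, both choices made after the data were seen.

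**Figure D3:**
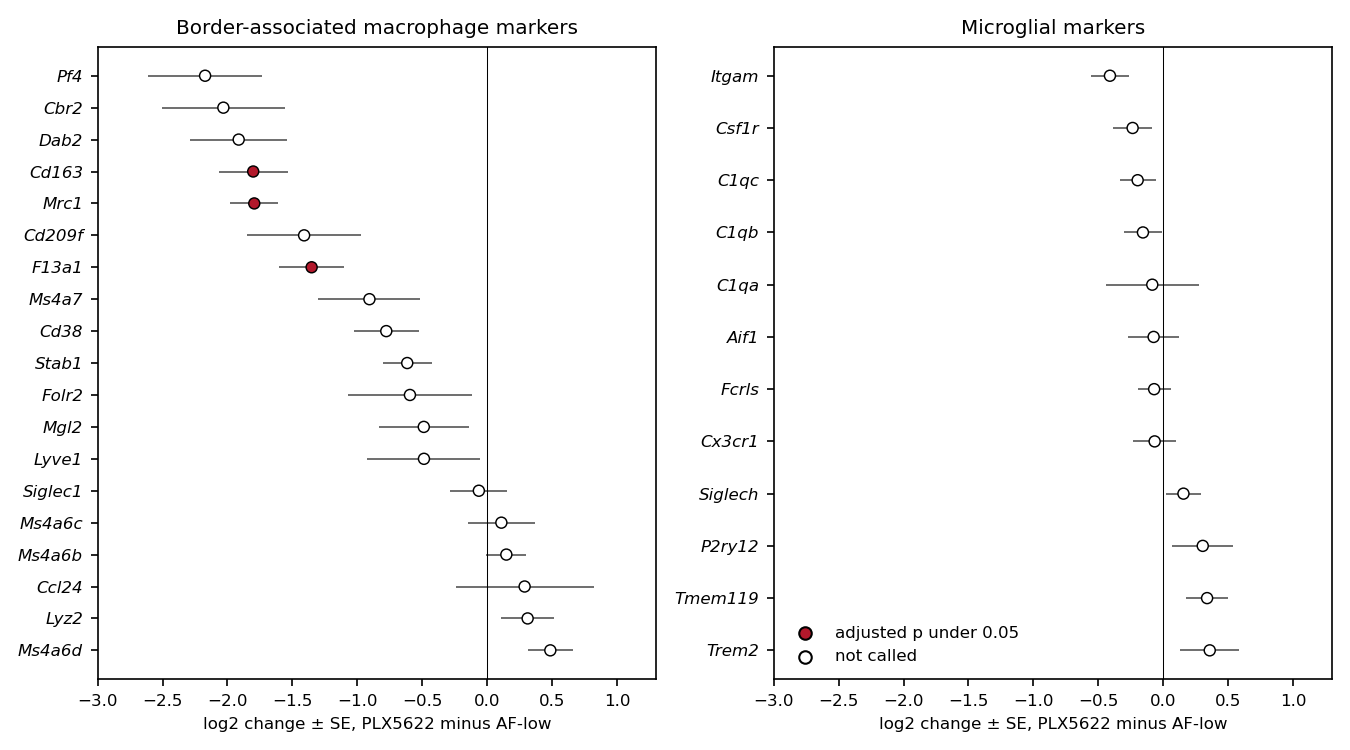
Horizontal position gives the log2 change of PLX5622 minus AF-low with its SE as a bar, for the 19 tested border-associated macrophage markers (left) and 12 of the 13 microglial markers (right), and red points have an adjusted p under 0.05. Border markers reach from -2.17 (Pf4) to 0.49 (Ms4a6d) with 3 called, while the microglial markers shown lie between -0.41 and 0.36 with 0 called.

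The microglial identity of both groups was measured with 13 markers, all of which could be tested. Their summed level was 13672 to 15000 TPM in PLX5622 libraries and 11689 to 15494 TPM in AF-low libraries. None of them was called (0 of 13), and their median log2 change was -0.07; 1 had an unadjusted p under 0.05. The purinergic receptor P2ry12 averaged 1941 ± 161 TPM in PLX5622 libraries and 1599 ± 369 TPM in AF-low libraries (log2 change 0.30 ± 0.23, adjusted p = 0.577, limma). The fractalkine receptor Cx3cr1 averaged 360 ± 26.3 TPM in PLX5622 libraries and 378 ± 49.4 TPM in AF-low libraries (log2 change -0.07 ± 0.17, adjusted p = 0.896, limma).

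Tmem119, a membrane protein specific to microglia in the brain, had 651, 505, 550 and 649 TPM in PLX5622 libraries, against 366, 587 and 462 TPM in AF-low libraries, with overlap. Among the 28 homeostatic microglial genes 0 were called, with a median log2 change of 0.04, 14 positive and 14 negative. Selplg, the ligand of P-selectin, lay above AF-low in every PLX5622 library, at 1167 to 1394 TPM against 577 to 1040 TPM, and Crybb1, a crystallin typical of microglia, below it, at 81.8 to 126 TPM against 131 to 225 TPM. Neither passed (adjusted p = 0.155 for Selplg and 0.116 for Crybb1, limma).

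The receptor that PLX5622 inhibits was not called. Csf1r had 967, 989, 906 and 1053 TPM in PLX5622 libraries, against 1068, 1201 and 1188 TPM in AF-low libraries, so that the groups stood apart by a narrow gap (log2 change -0.24 ± 0.15, adjusted p = 0.503, limma). Its ligand Csf1 had 147, 156, 137 and 266 TPM in PLX5622 libraries, against 240, 209 and 264 TPM in AF-low libraries, with overlap through PLX5622 4 (adjusted p = 0.393, limma).

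Spi1 was the 1 gene called among 19 measured genes of the CSF1 receptor pathway and of myeloid lineage control, beside 0.144% of all genes tested. PU.1, its product, is the transcription factor that microglia and macrophages require, and Csf1r is among its known targets. Spi1 had 404, 411, 334 and 403 TPM in PLX5622 libraries, against 818, 591 and 688 TPM in AF-low libraries. It fell by 0.84 ± 0.15 log2 units (adjusted p = 0.0423, limma) and was called in 12 of 28 settings, with changes between -0.95 and -0.69. Runx1, a partner factor of PU.1, had 346, 334, 286 and 332 TPM in PLX5622 libraries, against 527, 448 and 476 TPM in AF-low libraries, and missed the threshold (log2 change -0.57, adjusted p = 0.0858, limma). Irf8 and Sall1, which set microglial identity, overlapped between the groups, with log2 changes of 0.12 and 0.20. The median of the 19 was -0.15, and 0.01 when TPM was rescaled without numbered gene models and mitochondrial genes. Runx1, Irf8 and Sall1 are named here after their values were seen.

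Antigen presentation by MHC class II was represented by 9 tested genes, and Cd74 was the 1 called, beside 0.144% of all genes tested. Cd74 encodes the invariant chain, which fills the groove of class II molecules until they reach the endosome. It had 58.1, 51.8, 43.0 and 59.1 TPM in PLX5622 libraries, against 151, 123 and 134 TPM in AF-low libraries, with a wide gap between the groups. Cd74 fell by 1.35 ± 0.14 log2 units (adjusted p = 0.00071, limma).

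The class II chain H2-Aa had 2.59, 20.2, 19.04 and 21.9 TPM in PLX5622 libraries, against 88.2, 73.3 and 96.0 TPM in AF-low libraries. The groups did not overlap, but PLX5622 1 stood far below its group and the change of -2.66 did not pass (adjusted p = 0.251, limma). H2-Ab1, the beta chain that pairs with H2-Aa, had 7.09, 7.42, 11.2 and 5.27 TPM in PLX5622 libraries, against 45.2, 9.91 and 24.2 TPM in AF-low libraries, with overlap through AF-low 2 (adjusted p = 0.268, limma). The list did not move as 1 block: H2-DMb1, a chain of the peptide exchange factor, had 54.4, 58.9, 50.5 and 60.7 TPM in PLX5622 libraries, against 18.7, 60.8 and 19.2 TPM in AF-low libraries (log2 change 0.97, adjusted p = 0.277, limma). The median of the 9 was 0.27, and -0.02 after quantile normalization. H2-Aa, H2-Ab1 and H2-DMb1 are named after their values were seen.

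Class I presentation gave 0 calls among 23 genes, with a median log2 change of -0.07. Tapbp, the tapasin that loads peptide onto class I, averaged 52.9 ± 5.42 TPM in PLX5622 libraries and 68.5 ± 5.67 TPM in AF-low libraries (adjusted p = 0.240, limma). H2-Q7, whose reads may be shared with near-identical class I genes, had 131 to 152 TPM in PLX5622 libraries and 155 to 250 TPM in AF-low libraries (adjusted p = 0.269, limma).

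Pvr and Cd80, both surface proteins bound by receptors of lymphocytes, were among the falls. Pvr, also called CD155, is a nectin-like adhesion receptor bound by DNAM-1 and TIGIT on lymphocytes. It had 33.4, 41.1, 39.2 and 45.3 TPM in PLX5622 libraries, against 120, 82.3 and 92.2 TPM in AF-low libraries. Pvr fell by 1.27 ± 0.17 log2 units (adjusted p = 0.00907, limma), and lost the call without PLX5622 1 (adjusted p = 0.0538) or AF-low 1 (0.0557), by the same test.

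Cd80, the B7-1 ligand of CD28 and CTLA-4, had 35.6, 40.8, 46.0 and 51.5 TPM in PLX5622 libraries, against 107, 73.1 and 128 TPM in AF-low libraries. It fell by 1.20 ± 0.21 log2 units (adjusted p = 0.0423, limma). Among 37 inflammatory cytokines and NF-kappaB regulators Cd80 was the 1 gene called, beside 0.144% of all genes tested. Of these 37 genes, 32 had a negative log2 change, beside 55.6% of all genes tested. An unadjusted p under 0.05 was found for 11 with a negative change and for 0 with a positive one, beside 10.2% and 4.11% of all genes, and 7 lay below AF-low without overlap, beside 10.9%. Their median was -0.28, and -0.14 with TPM rescaled without numbered gene models and mitochondrial genes, where the median of all genes was 0.09.

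Il1b, which encodes the cytokine interleukin 1 beta, had 285, 242, 229 and 270 TPM in PLX5622 libraries, against 651, 322 and 902 TPM in AF-low libraries, where the libraries differed among themselves (log2 change -1.16, adjusted p = 0.265, limma). Among 25 chemokines and receptors 0 were called. Cxcl2, which draws neutrophils, had 27.9, 34.4, 27.5 and 45.8 TPM in PLX5622 libraries, against 103, 64.7 and 100 TPM in AF-low libraries (log2 change -1.37 ± 0.32, adjusted p = 0.0927, limma). C5ar1, the receptor of complement fragment C5a, had 143 to 180 TPM in PLX5622 libraries and 191 to 384 TPM in AF-low libraries (adjusted p = 0.175, limma). Il1b is named after its values were seen.

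Toll-like receptors and their adaptors gave 0 calls among 24 genes, 20 of which had a negative change (55.6% of all genes tested did), with a median of -0.23. Ticam1, the adaptor TRIF of TLR3 and TLR4, had 36.3, 34.1, 33.0 and 38.6 TPM in PLX5622 libraries, against 81.0, 49.1 and 89.5 TPM in AF-low libraries (log2 change -0.98 ± 0.21, adjusted p = 0.0858, limma). Irak2, a kinase-like adaptor of MyD88 signalling, had 64.4 to 67.9 TPM in PLX5622 libraries and 92.9 to 154 TPM in AF-low libraries (adjusted p = 0.133, limma). In Ticam1, Irak2, C5ar1 and Il1b the AF-low library nearest to the treated ones was AF-low 2.

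Fosl2, an AP-1 subunit related to Fos, was the 1 call among 29 immediate early genes, beside 0.144% of all genes tested. It had 88.0, 93.3, 81.5 and 103 TPM in PLX5622 libraries, against 171, 148 and 140 TPM in AF-low libraries. Fosl2 fell by 0.73 ± 0.13 log2 units (adjusted p = 0.0434, limma), and 8 of the 28 settings called it, the fewest of the 19. The median of these 29 genes was -0.22. Immediate early genes respond to cell isolation as well as to signals in the tissue, and the part of the isolation was not tested.

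Among the other genes that fell, Actn4, the actin crosslinker alpha-actinin 4, had 16.2, 14.9, 13.6 and 20.8 TPM in PLX5622 libraries, against 40.0, 30.7 and 39.7 TPM in AF-low libraries, and it fell by 1.13 ± 0.18 log2 units (adjusted p = 0.0409, limma; called in 15 of 28 settings). Diaph1, a formin that elongates actin filaments, had 24.4, 15.3, 17.8 and 19.2 TPM in PLX5622 libraries, against 43.8, 47.7 and 46.2 TPM in AF-low libraries, and it fell by 1.23 ± 0.22 (adjusted p = 0.0423, limma). In Diaph1 the AF-low libraries were the ones that stood apart, since AF-high averaged 21.9 ± 5.98 TPM (n = 5) and young 15.9 ± 2.19 TPM (n = 3).

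Emp3, a membrane protein of the PMP22 family, had 89.8, 75.9, 77.7 and 93.1 TPM in PLX5622 libraries, against 383, 149 and 334 TPM in AF-low libraries. Emp3 fell by 1.66 ± 0.29 log2 units (adjusted p = 0.0423, limma), and AF-low 2 was the AF-low library nearest to the treated ones. Grb2, the adaptor that links receptor tyrosine kinases such as the CSF1 receptor to Ras, averaged 61.4 ± 7.13 TPM in PLX5622 libraries and 115 ± 17.2 TPM in AF-low libraries (log2 change -0.89 ± 0.16, adjusted p = 0.0434, limma). Arrb2, beta-arrestin 2, averaged 134 ± 10.99 TPM in PLX5622 libraries and 208 ± 8.16 TPM in AF-low libraries (log2 change -0.64 ± 0.11, adjusted p = 0.0423, limma). Rab11b, a GTPase of the recycling endosome, averaged 142 ± 13.5 TPM in PLX5622 libraries and 244 ± 43.0 TPM in AF-low libraries (log2 change -0.76 ± 0.14, adjusted p = 0.0434, limma). All of these genes are called with no overlap between the groups.

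Trib1, a pseudokinase that targets C/EBP factors for degradation, had 223, 215, 206 and 240 TPM in PLX5622 libraries, against 440, 317 and 456 TPM in AF-low libraries. Ppp2r3d, a regulatory subunit of protein phosphatase 2A, had 133, 131, 115 and 116 TPM in PLX5622 libraries, against 215, 214 and 237 TPM in AF-low libraries. Trib1 fell by 0.85 ± 0.15 log2 units (adjusted p = 0.0434, limma) and Ppp2r3d by 0.84 ± 0.15 (adjusted p = 0.0423, limma). Qtrt1, the catalytic subunit of the enzyme that places queuosine in transfer RNA, had 34.5, 27.6, 22.4 and 27.2 TPM in PLX5622 libraries, against 123, 55.1 and 72.9 TPM in AF-low libraries, and fell by 1.49 ± 0.25 (adjusted p = 0.0409, limma).

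For the last 2 called genes the assignment of reads is less sure. Nol7, a nucleolar protein, averaged 78.3 ± 8.46 TPM in PLX5622 libraries and 141 ± 20.3 TPM in AF-low libraries, and it fell by 0.84 ± 0.14 log2 units (adjusted p = 0.0423, limma). It overlaps Ranbp9 on the other strand, and the sources do not state if reads were split by strand. Ranbp9 averaged 80.4 ± 2.07 TPM in PLX5622 libraries and 87.3 ± 9.58 TPM in AF-low libraries and was not called (adjusted p = 0.757, limma). Gm49037 is annotated as a processed pseudogene at chr14:33428642-33429025 on the minus strand (GRCm38, GENCODE M21), inside Mapk8. It had 79.5, 121, 92.3 and 116 TPM in PLX5622 libraries, against 471, 277 and 381 TPM in AF-low libraries, and fell by 1.86 ± 0.31 (adjusted p = 0.0409, limma), while Mapk8 was not called (adjusted p = 0.614). A processed pseudogene may take reads from its parent gene.

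**Figure D4:**
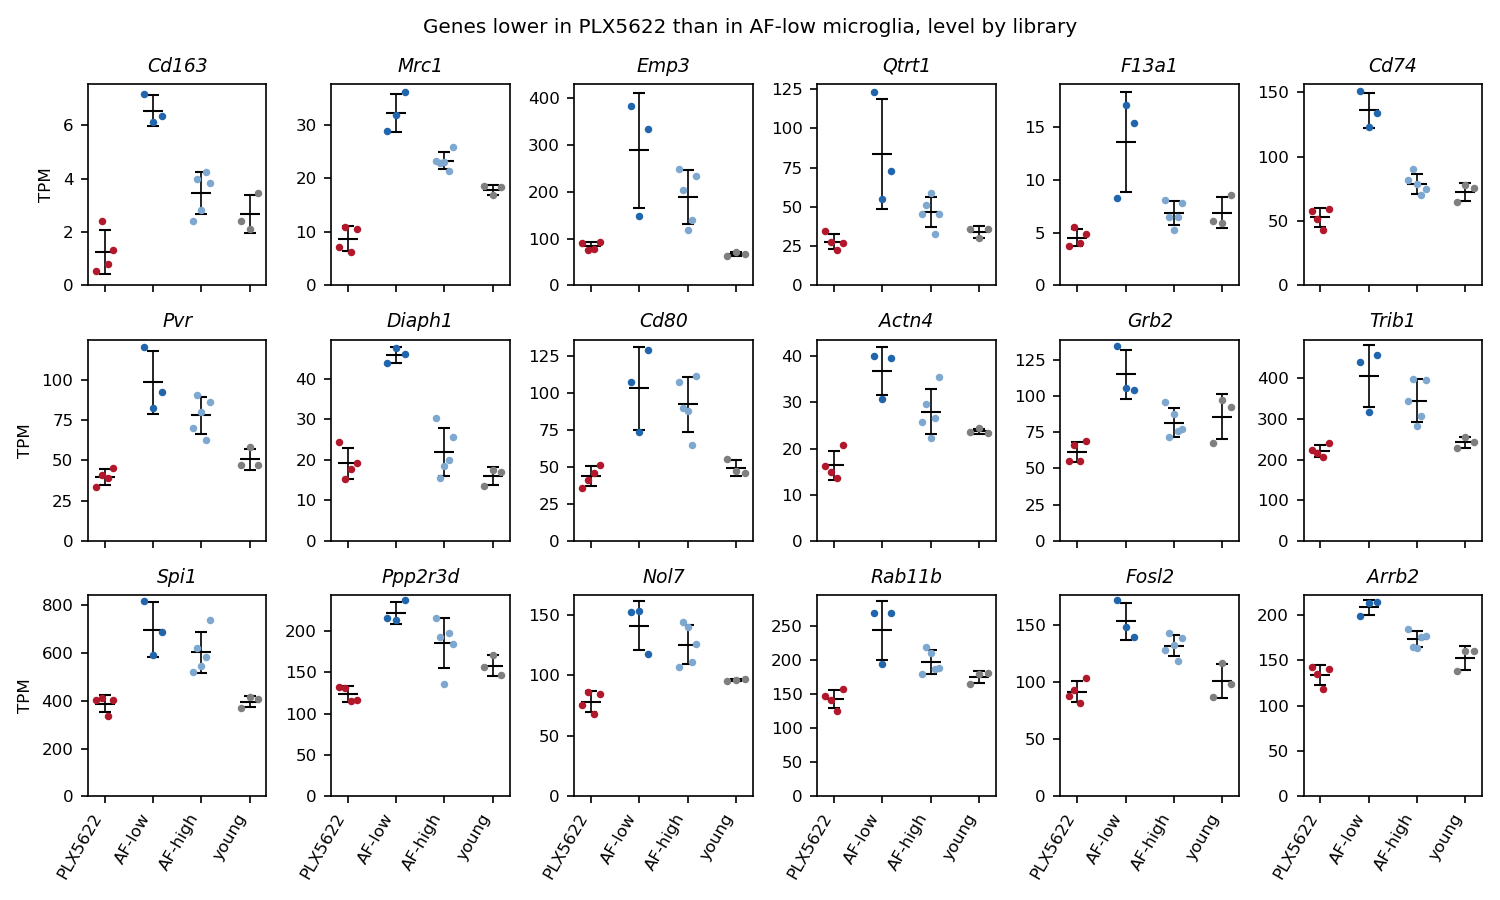
Each panel gives the TPM of 1 of the 18 called genes other than Gm49037 in every library, grouped on the x axis as PLX5622, AF-low, AF-high and young, with the group mean and SD as a bar. In every panel all 4 PLX5622 points lie below all 3 AF-low points, as for Mrc1, at 6.33 to 10.97 TPM against 28.9 to 36.0 TPM.

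No rise passed, and the 5 nearest by the rule for named genes were Ly9, Cst7, Cebpzos, Runx2 and Slc12a2. Ly9, a SLAM family receptor, had 19.8, 20.9, 21.6 and 21.4 TPM in PLX5622 libraries, against 9.97, 10.4 and 13.4 TPM in AF-low libraries (log2 change 0.85 ± 0.18, adjusted p = 0.0804, limma). Cst7, which encodes the protease inhibitor cystatin F and is a marker of disease-associated microglia, had 62.7, 48.9, 43.0 and 49.8 TPM in PLX5622 libraries, against 26.0, 14.9 and 11.5 TPM in AF-low libraries (log2 change 1.56 ± 0.33, adjusted p = 0.0858, limma). Both were above AF-low in every treated library. Cst7 passed without AF-high 1 (adjusted p = 0.0451) and with array weights (0.0424), and Ly9 without AF-low 2 (0.0479), all by limma.

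Runx2, a transcription factor, had 6.96, 11.03, 11.99 and 6.23 TPM in PLX5622 libraries, against 1.94, 3.39 and 1.81 TPM in AF-low libraries (log2 change 1.56 ± 0.34, adjusted p = 0.0858, limma). Slc12a2, the sodium-potassium-chloride cotransporter NKCC1, averaged 54.9 ± 6.72 TPM in PLX5622 libraries and 36.3 ± 1.42 TPM in AF-low libraries (log2 change 0.58 ± 0.13, adjusted p = 0.0858, limma). Cebpzos averaged 71.4 ± 7.13 TPM in PLX5622 libraries and 39.8 ± 13.7 TPM in AF-low libraries (log2 change 0.88 ± 0.19, adjusted p = 0.0858, limma). Without AF-low 2 the adjusted p was 0.0354 for Runx2, 0.0442 for Slc12a2 and 0.0134 for Cebpzos.

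Disease-associated microglial genes, a program of lipid handling and phagocytosis induced around plaques and with age, gave 0 calls among 27, with a median log2 change of 0.17. Of the 27, 20 had a positive change and 7 a negative one, where 55.6% of all genes tested were negative. An unadjusted p under 0.05 was found for 4 with a positive change and 0 with a negative one, beside 4.11% and 10.2% of all genes. Lgals3, galectin 3, had 8.26, 12.5, 5.76 and 8.88 TPM in PLX5622 libraries, against 4.19, 2.45 and 3.11 TPM in AF-low libraries (log2 change 1.19 ± 0.39, adjusted p = 0.183, limma). Apoe, the lipid carrier, averaged 620 ± 145 TPM in PLX5622 libraries and 538 ± 165 TPM in AF-low libraries (adjusted p = 0.814, limma). Cd68, a lysosomal membrane protein used as an activation marker, had 966, 934, 847 and 981 TPM in PLX5622 libraries, against 1134, 990 and 1250 TPM in AF-low libraries (adjusted p = 0.506, limma).

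Type I interferon response genes gave 0 calls among 52, with a median of 0.13. Members lay on both sides, with 34 positive and 18 negative changes (55.6% of all genes tested were negative). An unadjusted p under 0.05 was found for 5 with a positive change and 2 with a negative one, beside 4.11% and 10.2% of all genes. The 2 members with the smallest p, named next, both had negative changes. Stat2, a subunit of the factor that binds interferon response elements, had 649, 837, 624 and 827 TPM in PLX5622 libraries, against 1557, 1264 and 1310 TPM in AF-low libraries (log2 change -0.91 ± 0.19, adjusted p = 0.0804, limma). Stat2 passed without AF-high 2 (adjusted p = 0.0362), without AF-low 2 (0.0366) and with array weights (0.0470). Ifi207, a member of the p200 family whose genes are near-identical, had 24.7 to 36.9 TPM in PLX5622 libraries and 34.8 to 56.4 TPM in AF-low libraries (adjusted p = 0.160, limma).

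Autofluorescence is a lysosomal trait, and the lysosome was covered by 2 lists. Among 56 lysosomal proteases, hydrolases and membrane proteins 0 were called, with a median log2 change of 0.01, 29 positive and 27 negative changes. Laptm5, a lysosomal membrane protein of blood cells, had 1314, 1235, 1106 and 1317 TPM in PLX5622 libraries, against 1981, 1468 and 1890 TPM in AF-low libraries (log2 change -0.51 ± 0.14, adjusted p = 0.137, limma). Ctso, cathepsin O, had 44.6, 40.8, 41.2 and 43.0 TPM in PLX5622 libraries, against 24.6, 29.6 and 32.5 TPM in AF-low libraries (log2 change 0.55 ± 0.17, adjusted p = 0.167, limma).

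The 18 subunits of the vacuolar proton pump that acidifies lysosomes gave 0 calls and a median of -0.13. Atp6v0d1 had 75.9 to 110 TPM in PLX5622 libraries and 144 to 153 TPM in AF-low libraries (log2 change -0.70 ± 0.20, adjusted p = 0.149, limma). Atp6v1b2 overlapped (adjusted p = 0.288, limma). Autophagy genes gave 0 calls among 46, with a median of -0.12; Bnip3l, a mitophagy receptor, averaged 58.3 ± 8.80 TPM in PLX5622 libraries and 83.3 ± 9.88 TPM in AF-low libraries (adjusted p = 0.251, limma). Gabarap, a conjugated autophagosome protein, averaged 121 ± 8.22 TPM in PLX5622 libraries and 157 ± 15.7 TPM in AF-low libraries (adjusted p = 0.276, limma).

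Among 30 phagocytic and scavenger receptors Mrc1 alone was called, beside 0.144% of all genes tested. Without overlap, 9 of the 30 lay below AF-low and 2 above (10.9% and 5.31% of all genes tested). Their median was -0.07. Complement genes gave 0 calls among 15, with a median of -0.16. C4b, the complement component that increases in aged glia, had 3.09, 4.18, 3.26 and 3.87 TPM in PLX5622 libraries, against 9.66, 9.50 and 8.79 TPM in AF-low libraries, a gap wider than the spread in either group. The log2 change of C4b was -1.17 ± 0.31 and did not pass (adjusted p = 0.132, limma), and AF-high libraries averaged 10.3 ± 5.08 TPM (n = 5).

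Metabolic lists gave 0 calls. The 51 nuclear-encoded genes of oxidative phosphorylation had a median of -0.14; Cox7c, a subunit of cytochrome c oxidase, had 603, 612, 535 and 671 TPM in PLX5622 libraries, against 868, 888 and 964 TPM in AF-low libraries (log2 change -0.59 ± 0.13, adjusted p = 0.0858, limma). The 23 glycolytic enzymes had a median of 0.01; Ldha, lactate dehydrogenase A, averaged 183 ± 19.4 TPM in PLX5622 libraries and 242 ± 35.3 TPM in AF-low libraries (adjusted p = 0.188, limma). The 27 genes of cholesterol synthesis and uptake had a median of -0.01; Insig1, a brake on sterol synthesis, averaged 27.1 ± 7.39 TPM in PLX5622 libraries and 18.1 ± 2.56 TPM in AF-low libraries (adjusted p = 0.222, limma). The 20 genes of lipid efflux and storage had the lowest median of the pathway lists, -0.31; Plin2, which coats lipid droplets, had 57.1, 47.1, 44.0 and 95.8 TPM in PLX5622 libraries, against 91.6, 102 and 85.4 TPM in AF-low libraries, with overlap through PLX5622 4 (adjusted p = 0.224, limma). The 33 antioxidant genes had a median of -0.14; Sod1, superoxide dismutase 1, averaged 247 ± 38.2 TPM in PLX5622 libraries and 420 ± 28.3 TPM in AF-low libraries (adjusted p = 0.168, limma).

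Growth and stress lists gave 0 calls too. Cell division genes, 41 in number, had a median of -0.04. Cdkn1a, the cell cycle inhibitor p21, had 408, 318, 393 and 443 TPM in PLX5622 libraries, against 1377, 443 and 953 TPM in AF-low libraries. The treated libraries were close together and AF-low 2 met the highest of them, and the change of -1.10 ± 0.34 did not pass (adjusted p = 0.163, limma). The 26 senescence and DNA damage response genes had a median of 0.10. The 19 genes of TGF-beta signalling, which maintains microglial identity, had a median of -0.12; Smad3, its receptor-regulated factor, had 143, 140, 119 and 151 TPM in PLX5622 libraries, against 341, 167 and 333 TPM in AF-low libraries (log2 change -0.95 ± 0.24, adjusted p = 0.126, limma). The 28 heat shock proteins and chaperones had a median of -0.27, with 22 negative changes (55.6% of all genes tested were negative). Hspa1l averaged 3.29 ± 1.19 TPM in PLX5622 libraries and 7.12 ± 0.526 TPM in AF-low libraries (adjusted p = 0.126, limma). Without AF-low 2, Cdkn1a (adjusted p = 0.0244) and Smad3 (0.0134) passed by limma.

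**Figure D5:**
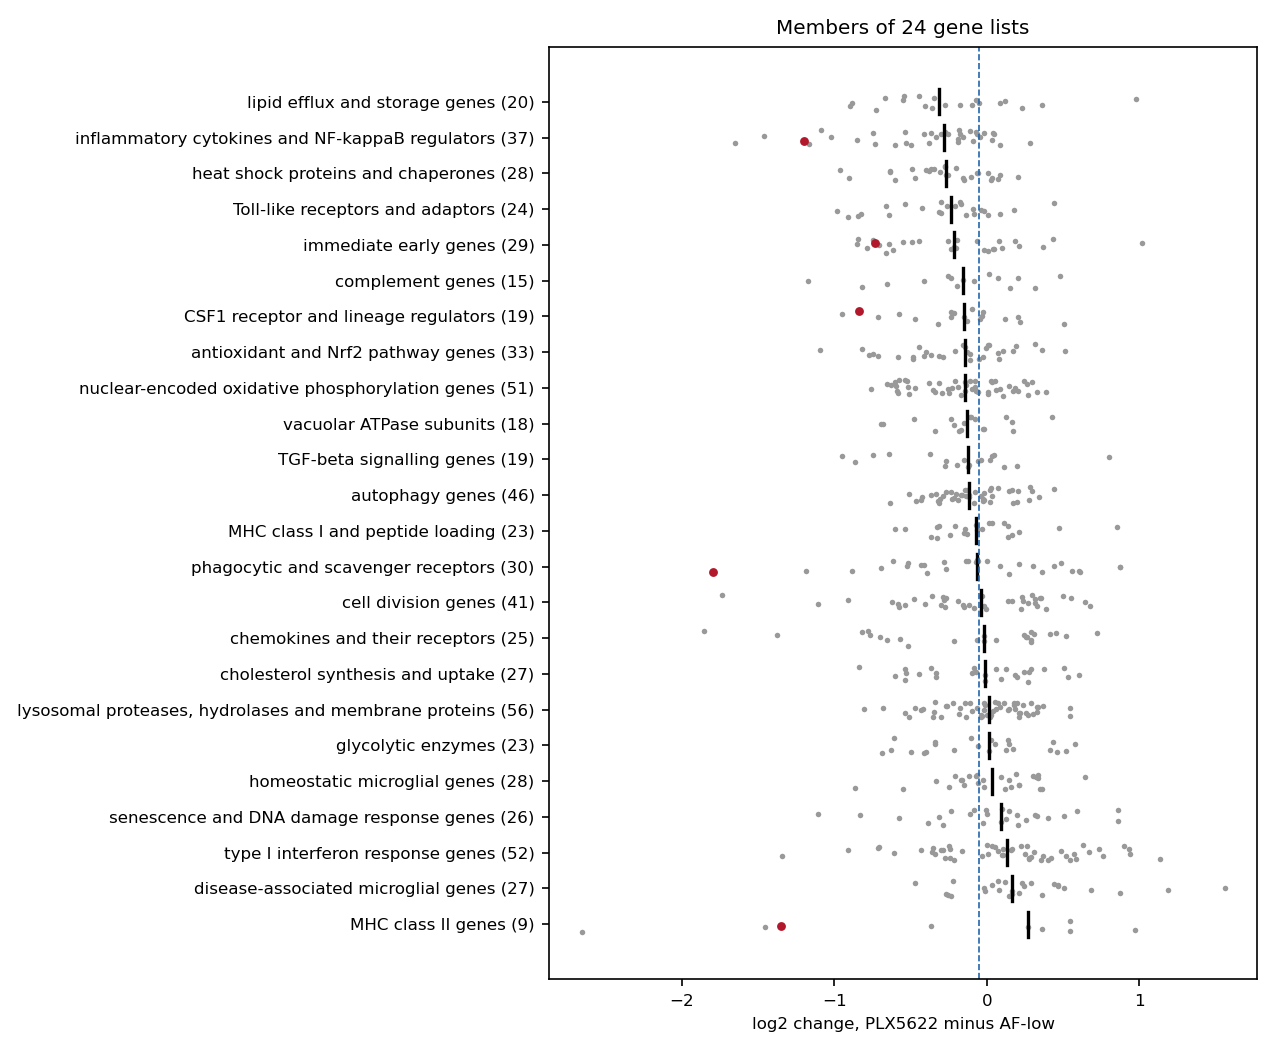
Each grey point is the log2 change of PLX5622 minus AF-low of 1 tested gene in a pathway list, red points have an adjusted p under 0.05, and the dashed line marks the median of all genes at -0.05. The lists are ordered by their median, which is lowest for lipid efflux and storage genes at -0.31, and red points occur in 5 lists: CSF1 receptor and lineage regulators, inflammatory genes, MHC class II, phagocytic receptors and immediate early genes.

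Of the other marker lists, those of cell types besides microglia and border-associated macrophages, 0 genes were called, and the summed level of 2 lists, astrocytes and B cells, stood apart between the groups. Blood monocyte markers summed to 1024 to 1401 TPM in PLX5622 libraries and 1100 to 1444 TPM in AF-low libraries, Lyz2 included, with 0 of 10 called and a median of 0.00; 6 of their 16 markers, among them Plac8 and Chil3, are not analysed here. T and NK cell markers summed to 35.5 to 58.7 TPM in PLX5622 libraries and 30.2 to 54.0 TPM in AF-low libraries (0 of 6 called), and neutrophil markers to 16.2 to 25.1 TPM and 16.2 to 24.2 TPM (0 of 2 called). Astrocyte markers summed to 433 to 587 TPM in PLX5622 libraries and 630 to 689 TPM in AF-low libraries with no overlap; 0 of 11 were called, and Gfap is not analysed here. Most of this sum was Glul, which encodes glutamine synthetase and averaged 386 ± 69.3 TPM in PLX5622 libraries and 568 ± 34.9 TPM in AF-low libraries, and the sum of the other markers overlapped. B cell markers summed to 192 to 245 TPM in PLX5622 libraries and 249 to 323 TPM in AF-low libraries, also with no overlap; 0 of 5 were called, and Cd79a is not analysed here. Most of it was Ighm, the immunoglobulin M heavy chain, at 162 ± 20.9 TPM in PLX5622 libraries and 220 ± 34.7 TPM in AF-low libraries, and the sum of the others overlapped here too. Endothelial, neuronal, oligodendrocyte, oligodendrocyte precursor, pericyte, choroid plexus and erythroid sums overlapped and gave 0 calls. The part of such cells in the falls was not tested.

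The sign of a list's median depended on the scaling in 12 of the 24 pathway lists. It differed from the one given above under at least 1 of quantile normalization, median scaling and rescaling without numbered gene models and mitochondrial genes for CSF1 receptor and lineage regulators, chemokines and their receptors, MHC class I and peptide loading, MHC class II genes, vacuolar ATPase subunits, phagocytic and scavenger receptors, cell division genes, cholesterol synthesis and uptake, antioxidant and Nrf2 pathway genes, autophagy genes, TGF-beta signalling genes and nuclear-encoded oxidative phosphorylation genes. The sign of the border-associated macrophage median was negative under all of these.

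The 19 genes that fell are placed against the other groups by their levels, since these comparisons share libraries with the one described. The mean of every called gene was higher in AF-low than in AF-high libraries (19 of 19), and for 18 of them all young values were below all AF-low values. For 16 of them all 5 AF-high values were above all 4 PLX5622 values. The shares of all genes with these patterns were not computed, and the choice of genes by this comparison favours both patterns. Against young microglia the PLX5622 mean was lower for 17 of the 19, and 0 of them were called between PLX5622 and young. The median log2 change of all genes between PLX5622 and young was -0.11. The share of all genes with a lower PLX5622 mean was not computed, and the choice of genes with low PLX5622 values favours this pattern too. AF-low microglia thus held the highest mean of the 4 groups for each of these genes, as the choice of genes by this comparison favours.

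Values in the other groups follow this order for the leading genes. Mrc1 averaged 8.75 ± 2.33 TPM in PLX5622, 32.2 ± 3.60 in AF-low, 23.3 ± 1.61 in AF-high and 17.9 ± 0.925 TPM in young libraries. It was called between PLX5622 and AF-high (adjusted p = 0.00603, limma) and not between PLX5622 and young (0.0641). Cd74 averaged 53.0 ± 7.43 TPM in PLX5622, 136 ± 13.9 in AF-low, 79.1 ± 7.77 in AF-high and 72.7 ± 7.26 TPM in young libraries, with an adjusted p of 0.0541 between PLX5622 and AF-high. Spi1 averaged 388 ± 36.0 TPM in PLX5622, 699 ± 114 in AF-low, 604 ± 85.2 in AF-high and 397 ± 24.3 TPM in young libraries. Between PLX5622 and young libraries Spi1 differed by -0.03 log2 units and was not called (adjusted p = 0.994, limma).

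Counts over all genes gave 83 calls between PLX5622 and AF-high (0.63% of genes tested), of which 21 rose (0.159%) and 62 fell (0.471%), and 12 between PLX5622 and young (0.0911%), of which 8 rose (0.0607%) and 4 fell (0.0304%). There were 6 between AF-low and young (0.0455%; all 6 higher in AF-low). Between AF-high and AF-low 0 were called. Of the 19 genes, 7 were called between PLX5622 and AF-high as well. Between AF-low and young 2 of the 19 (Emp3 and Diaph1) were called, both higher in AF-low at an adjusted p of 0.0441 (limma). These comparisons share libraries with the one that chose the 19 genes, which favours such repeated calls.

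Cxcl13, which attracts B cells, is a gene on which these 2 old groups overlapped. It had 27.0, 14.5, 23.4 and 19.5 TPM in PLX5622 libraries, against 10.1, 11.2 and 15.7 TPM in AF-low libraries, with overlap (log2 change 0.72 ± 0.49, adjusted p = 0.523, limma). Young libraries averaged 0.516 ± 0.557 TPM (n = 3), and Cxcl13 was called higher in PLX5622 than in young (log2 change 3.89, adjusted p = 0.00609) and in AF-low than in young (3.17, 0.0462). Cst7 averaged 51.1 ± 8.28 TPM in PLX5622, 17.5 ± 7.60 in AF-low, 23.6 ± 10.7 in AF-high and 9.31 ± 3.12 TPM in young libraries, and it was called between PLX5622 and young (log2 change 2.36, adjusted p = 0.0104, limma). Ly9 was called there too (log2 change 1.13, adjusted p = 0.0195, limma).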

How the data were processed

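RNA of microglia sorted from mouse brain was kept in RNAprotect, purified on RNeasy columns, amplified with the Ovation system and built into low-input libraries, per the labels' protocols. The authors deposited TPM, with libraries as columns and gene symbols as lines, made with FastQC 0.11.8 and Salmon 1.0.0 on GRCm38 (mm10) per the submitters' processing notes, which also name DESeq2 with no version. These sources do not state the filter behind the table, the annotation or the strand setting. Of 13834 lines, 13744 symbols were found in GENCODE M21, 19 symbols had been turned into dates, and 0 values equalled 0, so a gene at 0 in any library is not analysed here. There were 0 pairs of identical libraries.

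From these TPM values, genes with at least 1 TPM in at least 3 libraries (13175) were tested with limma 3.58.1 in R 4.3.3 on log2(TPM + 1), with 1 mean per group over all 15 libraries, a trended prior and 11 residual degrees of freedom. P-values are two-sided, adjusted by Benjamini-Hochberg over all genes, and called under 0.05. Fold changes on this scale understate those of low genes. Library measures were tested by exact permutation over the 7 libraries and adjusted over the 4 measures (0.114 for numbered gene models and for spread, 0.152 for mitochondrial and 0.171 for ribosomal protein transcripts). The 7 libraries follow from their labels, but this comparison and the gene lists were chosen with earlier results of these data known, and no set test was run. Named genes are the called genes with no overlap and 5 TPM or more on average in the higher group, up to 15 in each direction, with the 5 nearest where none pass, and of each list the called members or else the 2 with the smallest p. Numbered gene models, pseudogenes, mitochondrial and ribosomal protein genes were passed over in the first of these rules, so that Gm49037 is named outside it. Arrb2, Rab11b and Fosl2 fell outside it through the limit of 15, and Fosl2 is also named by its list. The fit was tested on simulated data. Alternatives changed the pseudocount, the filter, the scaling, the libraries and weights, and a replicate block. Values of a few single genes are not reported here.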

Additional observations from a re-analysis of the deposited data

Results flagged for a closer look

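Of 114 groups of 4 or 5 values looked at, 4 held a library whose distance to the nearest other value, divided by the range of the group, passed Dixon's 95% limit, and about 1 in 20 groups would by chance. PLX5622 groups were looked at for every gene named by rule and every library measure, and AF-high groups only for the 19 called genes. AF-low and young groups were not looked at, nor were genes named after their values were seen, such as H2-Aa. All 4 groups with a far library are PLX5622 groups, as were most of those looked at. Of these 4, 2 come from PLX5622 3 and 2 from PLX5622 4. Spi1 was low in PLX5622 3, at 334.251 TPM against 403 to 411 TPM in the other 3 treated libraries, and this value lies on the far side from AF-low. Ski, a repressor of SMAD signalling, was low in PLX5622 3 too, at 85.3 TPM against 111 to 114 TPM. Atp6v1b2 was high in PLX5622 4, at 87.4 TPM against 66.0 to 68.1 TPM. Csf1 was high in PLX5622 4, at 266 TPM against 137 to 156 TPM, which put this library above all 3 AF-low libraries for Csf1. Without PLX5622 3 the change of Spi1 was -0.77 log2 units and no longer passed (adjusted p = 0.186, limma), and it did not pass without PLX5622 1 (0.136), PLX5622 2 (0.109) or PLX5622 4 (0.0734) either.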

How the results depend on the processing

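The 19 calls became 4 after quantile normalization, 6 after median scaling, 4 with TPM rescaled without numbered gene models and mitochondrial genes, 0 with only the PLX5622 and AF-low libraries, 89 with array weights (13 rose and 76 fell) and 3 with a replicate block. There were 19 or 20 with other pseudocounts and filters, though without a filter F13a1 was lost and 1 gene rose, and 13 with weights per group. Without young 1 and young 2, left out after the data were seen, there were 3, and without AF-high 2, AF-high 3 and AF-low 1, likewise, 45 (6 rose and 39 fell, and 3434 genes did not overlap). Leaving out 1 library gave 2 to 398 calls, 0 to 97 rises, 2 to 301 falls and 2125 to 4744 genes with no overlap. Of the changes of named genes, 2203 values kept their side of the threshold, 274 lost a call, 25 gained one, 22 changed sign without a call, and 0 changed the sign of a call.

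Same-numbered PLX5622 and AF-low libraries did not deviate together (correlations of 0.03, 0.05 and -0.00), nor did AF-high libraries with the AF-low library of their number (0.05, -0.03 and -0.08), and the numbers were not taken to pair the samples. With the replicate block 2 of the 19, Mrc1 and Cd74, were called (adjusted p = 0.0349 for both, limma).

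Between PLX5622 and AF-high the 83 calls became 43 with rescaled TPM, 441 with array weights, 180 with weights per group, 0 with the replicate block, 3 without young 1 and young 2, and 295 without the 3 old libraries. Between PLX5622 and young the 12 became 22 after quantile normalization, 420 and 241 with these weights, 3 with the block, 0 without young 1 and young 2, and 30 without the 3 old libraries. Between AF-low and young the 6 became 11 after quantile normalization, 12 after median scaling, 44 with array weights, 0 with the block, 0 without young 1 and young 2, and 1 without the 3 old libraries. Leaving out 1 library gave 1 to 205, 1 to 52 and 0 to 182 calls in these 3 comparisons, and 0 to 1 between AF-high and AF-low. The cause of these shifts was not tested. TPM keeps no depth, so low values have no known counting error, and edgeR and DESeq2 were not run since the table holds no counts.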
